A study of Mus musculus with 11 samples.

Results

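The cytosolic ribosomal proteins form the protein part of the large and small subunits that translate nuclear mRNAs in the cytoplasm. Their genes were followed here in mouse pancreatic islets. Members were chosen by symbol alone, as every row named Rpl or Rps followed by a number with an optional suffix, by P0 to P2, or by a. This rule found 89 of 55536 genes, 53 of the large and 36 of the small subunit. Of these, 83 were annotated as protein-coding and 6 as processed pseudogenes, namely Rpl32l, Rpl6l, Rps12l1, Rps3a2, Rps3a3 and Rps4l. The ribosomal proteins whose symbols differ (such as Fau and Rack1) or carry the suffix al (Rpl36al) fell outside the rule and are given with the related lists.

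Islet RNA came from wild-type C57BL/6J female mice that were either virgin or multipara. Multipara mice were 9 weeks old at the start and went through 3 pregnancies, and islets were isolated 3 weeks after the last delivery. Virgin mice were matched for age. A part of each parity group received S-961 for 3 days, a peptide that blocks the insulin receptor and so raises the demand for insulin, and the rest were labelled as having had no treatment. Poly(A) RNA was sequenced in 3 virgin S-961, 4 multipara S-961, 2 virgin untreated and 2 multipara untreated libraries. The study counts its S-961 samples as mice. The sources used here give no such count for the untreated libraries, whose spread may be partly technical, and do not say whether treated and untreated libraries were prepared together.

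Ribosomal protein mRNAs are among the most abundant of any cell, and their products are assembled in near-equal numbers with ribosomal RNA in the nucleolus. Most of these mRNAs begin with a C followed by a run of pyrimidines, the 5′TOP motif, through which mTORC1 and Larp1 set their translation and stability together. In β cells, proinsulin is a major product of the ribosomes. Several members have paralogues that can replace them in the ribosome (Rpl22l1 for Rpl22, Rps27l for Rps27).

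The starts of 12 members are shown to give the sequence behind the 5′TOP motif in members with large and small changes, in 1 of the most studied members (Rps6) and in paralogues. Windows of 30 bases, 10 before and 20 from the start listed by RefSeq on GRCm38.p6, are written 5′ to 3′ on the coding strand. Capitals mark a C followed by at least 4 pyrimidines, with the C within 5 bases of the start.
Rps27 (chr3:90213629-90213658, minus strand): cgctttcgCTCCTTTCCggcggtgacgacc
Rpl37a (chr1:72711250-72711279, plus strand): ctcgccggtctaaaaccgcgcatgcgcatt
Rps21 (chr2:180257369-180257398, plus strand): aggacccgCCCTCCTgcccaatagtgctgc
Rpl37 (chr15:5116603-5116632, plus strand): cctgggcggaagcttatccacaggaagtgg
Rpl7a (chr2:26910797-26910826, plus strand): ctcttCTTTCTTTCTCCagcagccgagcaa
Rplp0 (chr5:115559457-115559486, plus strand): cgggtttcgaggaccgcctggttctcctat
Rps2 (chr17:24720053-24720082, plus strand): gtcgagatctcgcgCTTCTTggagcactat
Rpl7l1 (chr17:46782637-46782666, minus strand): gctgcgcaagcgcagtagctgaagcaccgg
Rpl22 (chr4:152325716-152325745, plus strand): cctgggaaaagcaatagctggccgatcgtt
Rpl22l1 (chr3:28805498-28805527, plus strand): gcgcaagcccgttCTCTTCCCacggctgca
Rps27l (chr9:66946076-66946105, plus strand): cctccccgccgCCTCTatcccggaagttgc
Rps6 (chr4:86857348-86857377, minus strand): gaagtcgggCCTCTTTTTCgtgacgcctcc
A start was listed for 64 of the 89 members, and 29 of these (45.3%) held such a run at the first listed start, against 4989 of 27025 genes (18.5%). The longest run marked was of 12 pyrimidines in Rpl7a, a member with a small change. The bases shown before it are also pyrimidines, left unmarked by the limit of 5 bases. The run of 9 in Rps27 belonged to a member with a large change. The median log2 fold change with S-961, described next, was -1.58 over the 28 tested members with the run and -1.49 over the 32 without it, with ranges of -2.61 to -0.43 and -2.32 to -0.13. A run is a match of letters at a listed start and not a mapped cap site, so that absence of a run says only that these letters were not found there.

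The library labelled multipara S-961 4 lay nearer to the virgin S-961 libraries (distances of 36.5, 41.5 and 43.6 on the 500 most variable genes) than to the other multipara S-961 libraries (63.1, 57.4 and 72.5), so results that rest on it are also given without it. The islet hormones Ins1, Ins2, Gcg, Sst and Ppy were counted in every library. Ins1 and Ins2 together took 35.3 to 41.4% of all counts in the untreated libraries and 13.2 to 20.7% in the S-961 libraries. The 17 acinar cell markers all rose with S-961, with summed levels of 2492 to 17780 counts per 1000000 counts (CPM, scaled by TMM) against 146.3 to 277, none of them at 0 in all libraries. Of 8 β cell markers, 3 rose and 3 fell, while 25.9% of all genes fell and 26.1% rose. Other summed marker levels were lower with S-961 without overlap, at 14160 to 24370 against 26320 to 57260 CPM for α cells (4 of 6 markers fell), 3097 to 6198 against 10560 to 13380 CPM for δ and PP cells (4 of 5 fell, 1 rose) and 489.7 to 673.9 against 716.6 to 846.6 CPM for endothelial cells (4 of 7 fell). These calls pool both parity groups. Gcg held most of the α cell sum. Of the 6 α cell markers, 5 fell in virgin islets (17.6% of all genes fell). In multipara islets 1 fell and 2 rose (19.4% of all genes fell and 18.2% rose). In multipara untreated 1, markers of macrophages and lymphocytes summed to 902.1 CPM and those of red cells to 1153 CPM, against 40.24 to 131.4 and 26.76 to 346.9 CPM in the other libraries. Mitochondrially encoded genes took 2.93 to 3.66% of the total in S-961 and 2.46 to 2.69% in untreated libraries. The part of these features in the results below was not tested.

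The share of counts on ribosomal protein genes was lower with S-961 in both parity groups. It was 1.69, 1.67 and 2.07% in the virgin S-961 libraries and 1.86, 2.44, 1.85 and 1.73% in the multipara S-961 libraries, against 3.47 and 3.78% in virgin untreated and 4.17 and 3.44% in multipara untreated. The S-961 libraries thus lay below every untreated library, with means of 1.81% ± 0.225 (SD, n = 3) and 1.97% ± 0.319 (n = 4) against 3.63% ± 0.219 (n = 2) and 3.81% ± 0.516 (n = 2). The difference between the means of all S-961 and all untreated libraries was -1.81 percentage points, and -1.785 without multipara S-961 4. When Ins1 and Ins2 were left out of the total, the share was 1.98 to 2.95% with S-961 and 5.36 to 6.5% without it. These shares rest on 483737 to 1177721 estimated counts on members per library, so that counting error is far below the spread between libraries. Bulk values cannot tell fewer cells of a type from less RNA per cell.

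**Figure D1:**
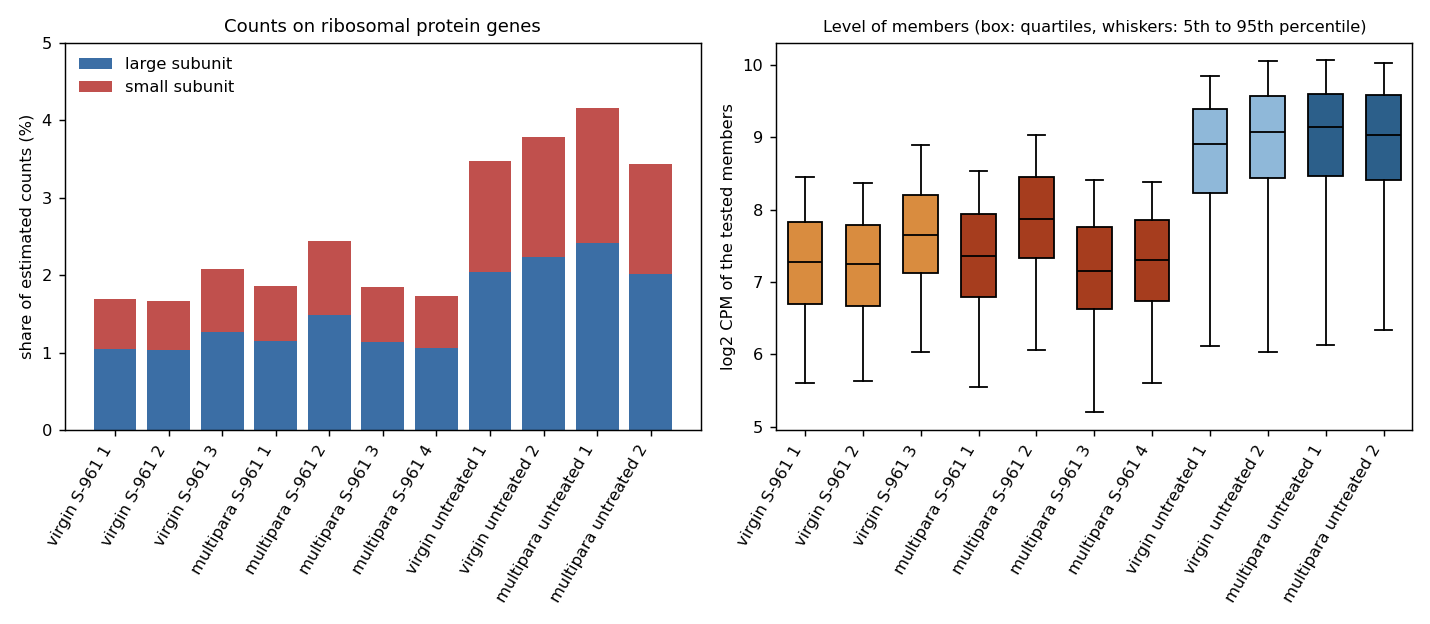
Left, share of estimated counts (%) on ribosomal protein genes in each of the 11 libraries, split into large and small subunit. Right, log2 CPM of the 84 tested members in each library, with quartiles as boxes and the 5th to 95th percentiles as whiskers. The 7 S-961 libraries lie below the 4 untreated libraries in their shares (left) and in their medians (right).

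Both subunits contributed. Large subunit genes held 1.03 to 1.49% of the total in treated and 2.01 to 2.41% in untreated libraries, and small subunit genes 0.639 to 0.948% and 1.43 to 1.75%. The log2 ratio of large to small subunit counts was 0.63 to 0.71 in the S-961 libraries and 0.46 to 0.52 in the untreated libraries, a mean difference of 0.17 with no overlap (also 0.17 without multipara S-961 4). Summed small subunit counts thus fell slightly further, and the difference was 0.13 when every member counted equally, although the medians given next were -1.59 for the large and -1.56 for the small subunit.

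The comparison of S-961 with untreated islets over both parity groups asked which members followed this shift. Of the 89 members, 84 (49 large, 35 small) passed the filter on low counts. With edgeR's quasi-likelihood test and Benjamini-Hochberg adjustment over 17996 genes, 82 of 84 fell and 0 rose, while 25.9% of all genes fell and 26.1% rose. Their median log2 fold change was -1.58 (quartiles -1.91 and -1.20), against -0.01 over all genes tested. In the large subunit 48 of 49 fell, and in the small subunit 34 of 35. A log2 fold change of -1 or below was seen for 69 members, 39 large and 30 small, and one of -2 or below for 15. Every S-961 library lay below every untreated library for 80 of the 84 (95.2%), against 19.1% of all genes.

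Scaling by total counts in place of TMM moved the median of all genes to 0.51 and that of the members to -1.07, with 76 called lower and 1, Rpl7l1, called higher. Adjusting each library for its trend with coding length left 79 called lower and 1 higher, at a median of -1.14. Adjusting for transcript length left 70 lower and 1 higher, at a median of -0.88. The shares of all genes given above hold for TMM with all libraries and without these adjustments. Without multipara S-961 4, 81 were called lower, at a median of -1.56.

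**Figure D2:**
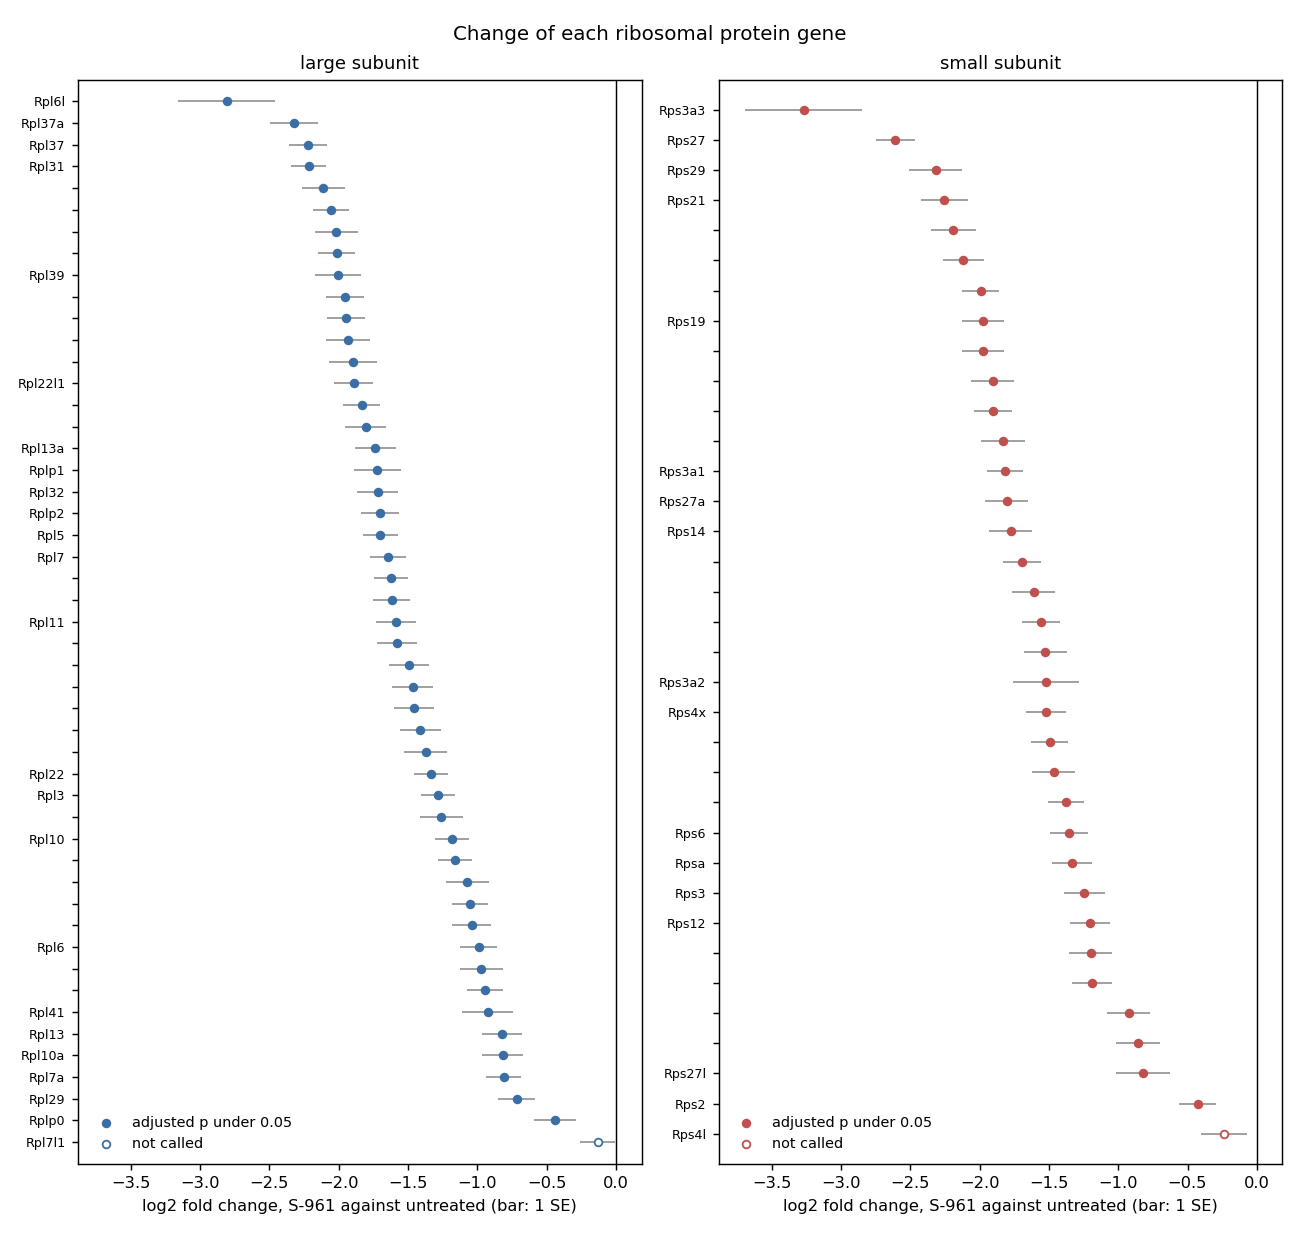
Log2 fold change of each of the 84 tested members, S-961 against untreated over both parity groups, with bars of 1 standard error (SE), large subunit left and small subunit right; members named in the text are labelled. Filled points passed an adjusted p of 0.05; the 2 open points, Rpl7l1 and Rps4l, did not, and these and Rps2 and Rplp0 turned positive with total-count scaling.

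The deepest falls among well-counted members were in short proteins of both subunits. Rps27 (chr3:90212522-90213651), a zinc finger protein of the small subunit, stood at 112.2, 113.9 and 166.2 CPM in virgin S-961 and at 113.3, 153.7, 108.1 and 122.2 CPM in multipara S-961. The untreated libraries held 628 and 745.9 CPM in virgin and 915.6 and 840.3 CPM in multipara islets. No S-961 library came near the untreated ones, and Rps27 was 6.09-fold lower (log2 fold change -2.61, SE 0.14, edgeR adjusted p = 2.14e-06).

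Rpl37a (chr1:72711290-72713813), a zinc-binding protein of the large subunit, was at 118.2 to 204.3 CPM with S-961 and 643.1 to 832.3 CPM without it. Rps29 (chr12:69157722-69159186), a zinc-binding protein of the small subunit head, was at 98.09 to 190.6 and 545.2 to 717.2 CPM. Both were about as far apart, with log2 fold changes of -2.32 (SE 0.17) and -2.32 (SE 0.19). Rps21 had a log2 fold change of -2.25 (SE 0.17), Rpl37 of -2.22 (SE 0.14) and Rpl31 of -2.21 (SE 0.13). In each of these genes the highest S-961 library, virgin S-961 3 or multipara S-961 2, stayed far below the lowest untreated library. The largest fitted changes belonged to the pseudogenes Rps3a3 (-3.27, SE 0.43) and Rpl6l (-2.81, SE 0.35). Both had at most 1.94 CPM in any library, and the counting divides reads between such copies and their parent genes Rps3a1 and Rpl6, so these values are uncertain. Rpl6l did not pass the filter on low counts among the S-961 libraries alone, which favours a fall.

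The smallest changes were in Rpl7l1, Rps4l, Rps2 and Rplp0, the only tested members whose groups overlapped. Rpl7l1 (chr17:46773907-46782672), a paralogue of Rpl7 that acts in the assembly of ribosomes, was at 63.68, 58 and 65.57 CPM in virgin S-961 and 53.54, 60.99, 36.63 and 57.58 CPM in multipara S-961. It was at 61.18 and 57.97 CPM in virgin untreated and 64.01 and 67.26 CPM in multipara untreated. Multipara S-961 1, 3 and 4 lay below every untreated library and the other S-961 libraries within the untreated range, and the log2 fold change of -0.13 (SE 0.13) did not pass the test (edgeR adjusted p = 0.4).

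Rps4l, an intronless copy of Rps4x, was at 35.34 to 72.48 CPM with S-961 and 63.05 to 80.43 CPM without it, with a log2 fold change of -0.24 (SE 0.17) that did not pass (edgeR adjusted p = 0.245). Rps2 (chr17:24718116-24721929), a protein of the small subunit at the entry of the mRNA channel, was at 377.9 to 577.7 CPM and 556 to 625.6 CPM. Its fall by 0.43 on the log2 scale (SE 0.13) passed the test (edgeR adjusted p = 0.0194), but not without virgin untreated 2 or multipara untreated 1 (adjusted p up to 0.0759), and only multipara S-961 2 reached the untreated range. Other members with small changes were Rpl29 (-0.71, SE 0.13), Rpl7a (-0.81, SE 0.12), Rpl10a (-0.82, SE 0.14), Rpl13 (-0.82, SE 0.14) and Rps27l (-0.82, SE 0.19). The log2 fold changes of Rpl7l1, Rps4l, Rps2, Rpl29 and Rps27l turned positive after adjustment for transcript length, and that of Rpl10a did so when a replicate block was added to it.

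The stalk of the large subunit, which recruits the elongation factors, is built from 1 copy of Rplp0 with pairs of Rplp1 and Rplp2, and its mRNAs did not fall alike. Rplp0 (chr5:115559467-115563727) was at 608.9, 563.4 and 724.9 CPM in virgin S-961 and 655.4, 878, 488.2 and 565.6 CPM in multipara S-961. In untreated islets it was at 828 and 868.6 CPM (virgin) and 932.5 and 840.8 CPM (multipara). Only multipara S-961 2 entered the untreated range, and Rplp0 fell by 0.44 on the log2 scale (SE 0.15, edgeR adjusted p = 0.0334), a call that was lost when any single library other than virgin S-961 3, multipara S-961 2 or multipara S-961 3 was left out (adjusted p of 0.00646 to 0.103 over the 11).

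Rplp1 (chr9:61913284-61914542) was at 216.2 to 397.7 CPM with S-961 and 778.1 to 998.2 CPM without it (log2 fold change -1.72, SE 0.17). Rplp2 (chr7:141447370-141451585) was at 88.22 to 134.9 and 314.7 to 355.1 CPM (log2 fold change -1.70, SE 0.14). The ratio of 2 mRNAs within a library does not depend on scaling. For Rplp1 over Rplp0 the log2 ratio was -1.38 to -1.10 with S-961 and -0.09 to 0.24 without it, and for Rplp2 over Rplp0 -2.80 to -2.42 and -1.44 to -1.29. Both differences, of -1.29 and -1.26, gave p = 0.00303 in a two-sided exact permutation test over the 11 libraries, the smallest p that 7 against 4 libraries allow (0.00346 adjusted over 8 ratios). Rplp2 over Rplp1 differed by 0.03, with overlapping groups (exact permutation p = 0.694). The coding length is 951 nucleotides in Rplp0, 342 in Rplp1 and 345 in Rplp2. Members of 301 to 450 nucleotides had a median log2 fold change of -1.85 (n = 28). Those of 901 to 1500 nucleotides, Rplp0 among them, had -0.94 (n = 3). Other protein-coding genes in these length ranges had medians of -0.63 and -0.08. The part of length in the ratios to Rplp0 was not tested.

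Members with named roles outside or inside the ribosome fell with the rest. Rpl5 and Rpl11, which with 5S ribosomal RNA bind Mdm2 and so link ribosome assembly to p53, were at 279 to 415.6 and 158.3 to 253.9 CPM with S-961. Without it they were at 945.1 to 1084 and 513.7 to 572.8 CPM. Their log2 fold changes were -1.70 (SE 0.13) and -1.59 (SE 0.14), within the quartiles of all members.

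Rps6 (chr4:86854660-86857412), the substrate of S6 kinase downstream of the insulin receptor and mTORC1, was at 315.2, 319.6 and 390.4 CPM in virgin S-961 and 326.2, 478.7, 307.9 and 312.4 CPM in multipara S-961. In untreated libraries it was at 833.7 and 891.7 CPM (virgin) and 941.5 and 901 CPM (multipara). The groups stood apart, and the Rps6 mRNA was 2.56-fold lower (log2 fold change -1.35, SE 0.14, edgeR adjusted p = 2.45e-05). The mRNA level says nothing of its phosphorylation.

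In the small subunit, Rps19, whose loss causes Diamond-Blackfan anaemia, had a log2 fold change of -1.98 (SE 0.15). Rps14, which is lost in 5q- syndrome, had -1.78 (SE 0.15) and Rps27a, made as a fusion with ubiquitin, -1.80 (SE 0.15). Rpsa, also known as the laminin receptor, had -1.33 (SE 0.14) and Rps3, which also takes part in DNA repair, -1.25 (SE 0.15). In the large subunit, Rpl13a, a part of the GAIT complex that silences inflammatory mRNAs, had -1.74 (SE 0.15). For these 6 genes every S-961 library was below every untreated library.

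Paralogues did not keep their ratio to the standard member. Rps27l (chr9:66946086-66949516), a p53-responsive paralogue of Rps27, was at 22.08 to 53.89 CPM with S-961 and 65.34 to 73.12 CPM without it. Since Rps27 fell far more, the log2 ratio of Rps27l to Rps27 was -1.54, -1.80 and -1.81 in virgin S-961 and -1.55, -1.51, -2.29 and -1.72 in multipara S-961. It was -3.18 and -3.51 in virgin untreated and -3.80 and -3.52 in multipara untreated. The ratio was thus higher in each S-961 library, by 1.75 on average, with no overlap. Both genes have a coding length of 252 nucleotides. The log2 fold change of Rps27l turned positive after adjustment for transcript length, and the part of transcript length in this ratio was not tested.

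Rpl22l1 (chr3:28805436-28807424), which can replace Rpl22 in the ribosome, moved the other way. It was at 43.92 to 66.58 CPM with S-961 and 173.7 to 237 CPM without it (log2 fold change -1.89, SE 0.14), while Rpl22 was at 48.38 to 74.05 and 129.7 to 162.4 CPM (-1.33, SE 0.13). The log2 ratio of Rpl22l1 to Rpl22 was 0.05, -0.08 and -0.01 in virgin S-961 and -0.17, -0.15, -0.40 and -0.30 in multipara S-961, against 0.42 and 0.28 in virgin and 0.27 and 0.74 in multipara untreated libraries. It was lower by 0.58 with S-961, and no S-961 library reached the lowest untreated value.

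The log2 ratio of Rpl7l1 to Rpl7 was -2.74 to -1.99 with S-961 and -3.93 to -3.65 without it (difference 1.49), and that of Rps4l to Rps4x -2.98 to -2.06 and -3.75 to -3.42 (difference 1.24). That of Rpl6l to Rpl6 was -11.33 to -9.61 and -8.91 to -8.60 (difference -1.86), on counts near 0. The ratios of Rps27l, Rpl22l1, Rpl7l1 and Rps4l each gave an exact permutation p = 0.00303 (0.00346 adjusted over 8 ratios), the smallest possible. The Rpl6l ratio gave the same p. Rpl6l passed the filter on low counts among the untreated but not among the S-961 libraries alone, so its p is not read as a result. Paralogues that are near copies share reads, so the Rps4l and Rpl6l ratios also depend on how the counting divided them.

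**Figure D3:**
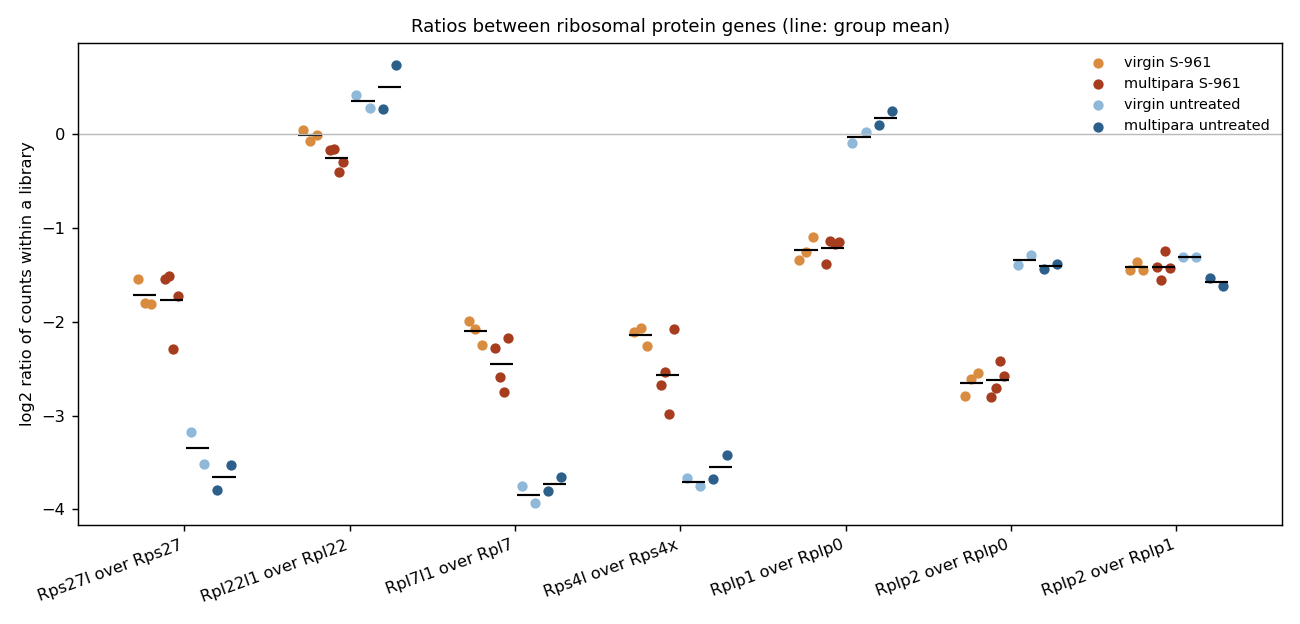
Log2 ratio of counts of 2 ribosomal protein genes within each library (points) with group means (lines), for 4 paralogue pairs and 3 stalk pairs. Rps27l, Rpl7l1 and Rps4l are higher relative to their partners in the 7 S-961 libraries, Rpl22l1 and the Rplp1 and Rplp2 to Rplp0 ratios are lower, and Rplp2 over Rplp1 overlaps.

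The 5 members that were not tested were at or near 0. Rpl10l, a testis paralogue of Rpl10, had no count in any library. Rpl3l, the muscle paralogue of Rpl3, reached 0.06 CPM in 2 S-961 libraries, Rpl39l 0.31 CPM, Rps12l1 0.44 CPM and Rpl32l 0.08 CPM at most. These values are too low for a comparison at this depth.

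The size of the fall went with the length of the encoded protein. Over the 80 tested protein-coding members, the log2 fold change and the log2 of the coding length had a Pearson's r of 0.45 and a Spearman's rho of 0.55, a description across genes that share the same libraries. Members with a coding length up to 300 nucleotides had a median log2 fold change of -2.11 (n = 10), those over 300 and up to 450 nucleotides -1.85 (n = 28), those up to 600 nucleotides -1.58 (n = 19) and those up to 900 nucleotides -1.19 (n = 20). The 3 members above 900 nucleotides had a median of -0.94. Rpl41, with the shortest coding length of 75 nucleotides, did not follow this order, with a log2 fold change of -0.93 (SE 0.19).

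All other protein-coding genes showed a like order at a higher level. Their medians in the same bins were -0.85, -0.63, -0.37 and -0.26, then -0.08 up to 1500, 0.17 up to 3000 and 0.40 above 3000 nucleotides. Their Pearson's r was 0.26 and their Spearman's rho 0.35 over 15008 genes. The median coding length was 456 nucleotides in members and 1383 in the other genes, and in each bin with members their median was the lower one. The length trend thus moved with treatment in all genes, and beyond the adjusted values above its part in the result was not tested.

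**Figure D4:**
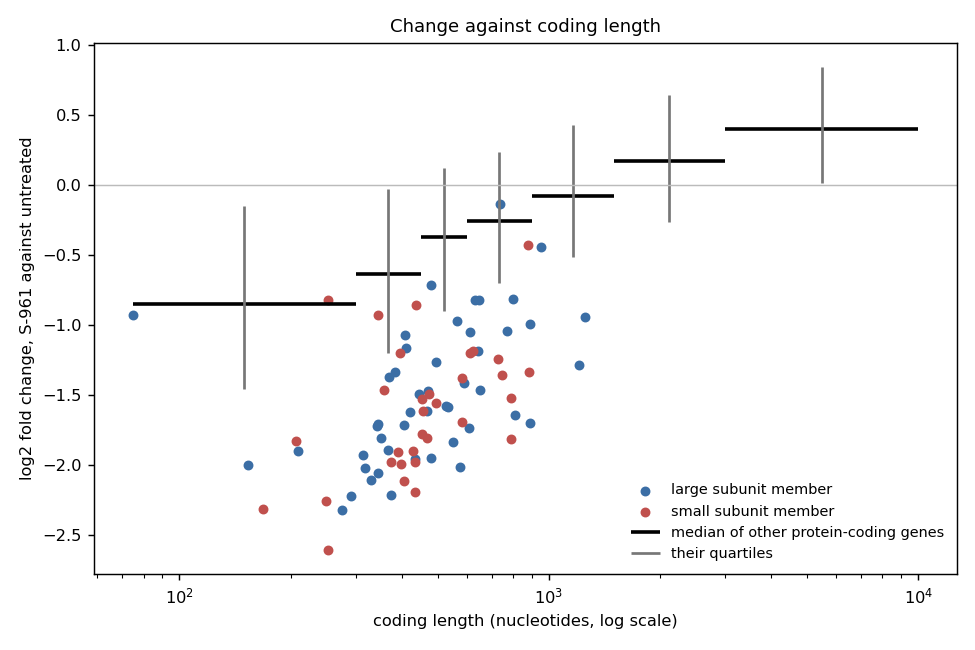
Log2 fold change (S-961 against untreated) of the 80 tested protein-coding members against coding length in nucleotides (log axis), by subunit, with the median (black) and quartiles (grey) of other protein-coding genes in 7 length bins, the last of them open to the right. Members lie below the median of other genes of like length with few exceptions, among them Rpl7l1 and Rps27l, and both rise with length.

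The fall was found in each parity group. In virgin islets, 79 of 84 members fell and 0 rose with S-961 (edgeR, 17.6% of all genes fell and 18.8% rose), with a median log2 fold change of -1.57. In multipara islets, 80 fell and 0 rose (19.4% of all genes fell and 18.2% rose), with a median of -1.64, and also 80 at -1.58 without multipara S-961 4. The difference between the effects in the 2 parity groups, an interaction term, was called for 0 members and for 0% of all genes by edgeR. An unadjusted p under 0.05 was seen for 0 members, against 1179 of 17996 genes. DESeq2 also called 0 members. The interaction had a median of -0.04 over the members, the same as the -0.04 over all genes, and single values ran from -0.48 to 0.67. The members' median was 0.015 without multipara S-961 4 and ran from -0.20 (without multipara S-961 2) to 0.10 (without virgin S-961 3) when single libraries were left out, so that its direction rested on single libraries.

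Multiparity itself moved the members little. With S-961, 0 of 82 tested members differed between multipara and virgin islets (edgeR, 0% of 16784 genes called). An unadjusted p under 0.05 was seen for 0 members, against 1630 of 16784 genes. DESeq2 also called 0 members. The median log2 fold change was 0.07, with 68 of 82 above 0. It became 0.12 without multipara S-961 4 and -0.09 without multipara S-961 2, so its direction rested on single libraries. The lowest values were those of Rpl7l1 (-0.25, SE 0.17), Rps4l (-0.23, SE 0.22) and Rpl22l1 (-0.13, SE 0.19), and those of Rpl39 (0.19, SE 0.23) and Rpl32 (0.16, SE 0.21) were among the highest. In 0 members did all multipara S-961 libraries lie above, or all below, the virgin S-961 libraries, against 5.23% above and 3.64% below over all genes.

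Without treatment, 0 of 84 members differed between multipara and virgin islets (edgeR, 0% of 15812 genes called). An unadjusted p under 0.05 was seen for 2 members, Rps4l and Rpl22l1, against 889 of 15812 genes. DESeq2 also called 0 members. The median log2 fold change was 0.10, with 78 of 84 above 0. Rps3a2 (0.42, SE 0.30) and Rps27 (0.36, SE 0.14) were highest, and Rps3a3 (-0.61, SE 0.38), Rpl6l (-0.08, SE 0.30) and Rpl10 (-0.04, SE 0.11) lowest. Both multipara libraries lay above both virgin libraries for 34 of all 89 members, among them Rpl39l and Rps12l1, which were too low to be tested. Both lay below for 1 member. Over all genes tested, the shares were 17.3% above and 18.8% below. Members move together within a library, and virgin untreated 1 was the lowest untreated library for 74 of the 84, so that the count of 34 reflects few independent values.

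The members also moved together among the S-961 libraries. Multipara S-961 2 was the highest of the 7 for 79 of 84 tested members, and multipara S-961 3 the lowest for 45, virgin S-961 1 for 18 and virgin S-961 2 for 15. The median log2 CPM over members was 7.26 to 7.70 in virgin S-961 and 7.23 to 7.88 in multipara S-961, against 8.96 and 9.09 in virgin and 9.20 and 9.08 in multipara untreated libraries. Markers of proliferating cells, summed over 8 genes, were at 430.4, 447.6 and 195.7 CPM in multipara S-961 1, 2 and 3, 61.33 CPM in multipara S-961 4 and 60.52 to 77.82 CPM in virgin S-961. Among them, Cdk1 was at 26.03, 33.7, 11.02 and 0.7685 CPM in multipara S-961 1 to 4 and 0.7117 to 1.388 CPM in virgin S-961. The study reports Cdk1 and other cell cycle genes as lower in S-961 multipara islets, the other direction. The reason was not tested, and the results by parity with S-961 take the labels as given. The median log2 CPM over members was 7.38, 7.88 and 7.23 in multipara S-961 1, 2 and 3, and a link with these markers was not tested.

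Genes that work with the ribosome did not all move as its proteins did. Over all genes tested with S-961 against untreated in both parity groups, 25.9% fell and 26.1% rose, shares to set beside each list below. The 4 ribosomal proteins outside the symbol rule all fell in this comparison. Fau, a fusion of ubiquitin-like protein and Rps30, had a log2 fold change of -1.59 (SE 0.17), Rpl36al -1.32 (SE 0.20) and Rack1 -0.97 (SE 0.14). Among 18 elongation factors and other mRNAs known for a 5′TOP motif, 15 fell and 1 rose, with a median of -0.86. Naca, a chaperone subunit at the ribosome exit, had -1.38 (SE 0.14), Eef1d -0.89 (SE 0.13) and Npm1 -0.83 (SE 0.15), while Eif3a, the largest subunit of eIF3, had 0.81 (SE 0.12).

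Of 29 initiation factors, 7 fell (24.1%, against 25.9% of all genes) and 4 rose (13.8%, against 26.1%), so the falls were near the general share. Their median was -0.10, from Eif3k at -1.14 (SE 0.13) to the scaffold Eif4g1 at 1.19 (SE 0.13). Of 39 ribosome biogenesis factors, 19 rose and 8 fell with a median of 0.39, from Nop10, a small protein of H/ACA particles, at -0.96 (SE 0.17) to the nucleolar GTPase Gnl3 at 1.38 (SE 0.19). Of 21 regulators of ribosome synthesis (mTORC1, Larp1 and Myc), 9 rose and 3 fell with a median of 0.27. The extremes were Eif4ebp1, a translation repressor under mTORC1, at -1.86 (SE 0.20) and Myc, which drives ribosomal gene transcription, at 2.44 (SE 0.23).

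Mitochondrial ribosomal proteins, which form a separate ribosome, fell less than the cytosolic ones, with 54 of 78 lower, 2 higher and a median of -0.58. Mrps21 had -1.60 (SE 0.16) and Mrps12 0.78 (SE 0.24). Of 300 genes with hyphenated symbols of ribosomal protein pseudogenes, 52 were tested, 36 fell and 3 rose, with a median of -2.01. Among the untreated libraries alone 46 passed the filter on low counts, and among the S-961 libraries alone 27. A part was thus tested through a higher level without S-961, which favours a fall in these numbers. The 300 pseudogenes took at most 0.0113% of counts in a library, against at least 1.67% on the members.

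**Figure D5:**
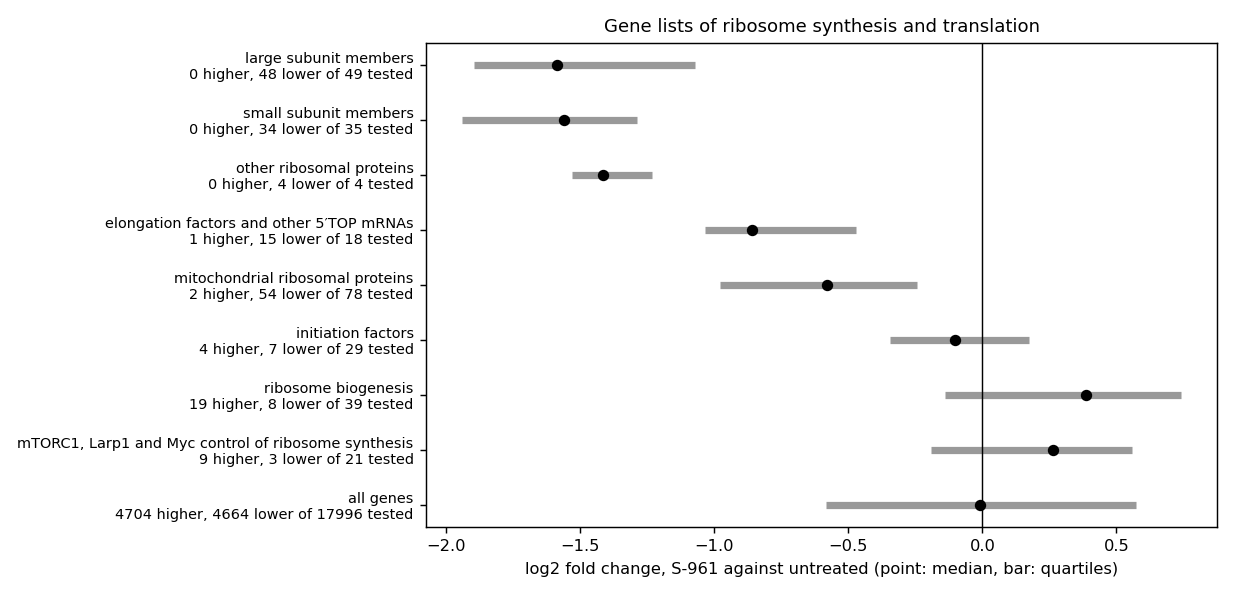
Median (point) and quartiles (bar) of the log2 fold change, S-961 against untreated over both parity groups, for members by subunit, for lists of ribosome synthesis and translation and for all genes. The numbers of genes called higher and lower by edgeR stand beside each name; both subunits have medians near -1.6, while ribosome biogenesis has 0.39.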

How the data were processed

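Islet poly(A) RNA was measured in 11 libraries made with a strand-specific kit. The authors deposited 1 table per library of expected counts (estimated counts, not normalized) for 55536 genes; the submitters' processing notes name STAR and RSEM, without versions, and the builds GRCm38 and mm10. Because reads shared between genes are divided, each library held 4449 to 5162 genes with fractional values, and near copies are uncertain.

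Counts were rounded and tested with edgeR 4.0.16 in R 4.3.3 (TMM, filterByExpr with minimum count 10 and minimum total count 15, quasi-likelihood test, Benjamini-Hochberg threshold 0.05). S-961 comparisons and the interaction used all 11 libraries, parity comparisons the 7 S-961 or the 4 untreated libraries. CPM are TMM-scaled over all 11. Total counts ran from 22028507 to 32234146, and the coefficient of biological variation was 0.266 to 0.293, so that the spread between libraries and not depth limited precision. Annotation was GENCODE M21 (GRCm38), in which all IDs were found. Lengths are those of the annotated principal transcript. Starts came from RefSeq (GRCm38.p6). Scripts were tested on simulated data.

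Members and gene lists were chosen with earlier results of these data known. Named genes were the 8 highest and 8 lowest members in the S-961 comparison, paralogues with their partners, 12 members of known role, the 3 highest and 3 lowest members in each parity comparison, members not tested, and of each further list the highest, the lowest and those nearest the median; Rpl41 was named after its value was seen. Some genes that these rules pick are not reported here. The file of each sample was taken as labelled. Alternatives were DESeq2 1.42.0, other scalings and filters, a replicate block, each library left out, and, added after seeing the data, trends with length and GC content.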

Additional observations from a re-analysis of the deposited data

Results flagged for a closer look

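In 11 of 43 members examined within the 4 multipara S-961 libraries, 1 library stood apart from the other 3 by Dixon's gap test, and in all 11 it was multipara S-961 2, at the high end. Chance flags about 1 in 20 groups, and members are not independent of each other. In multipara S-961 2, Rps6 was at 478.7 CPM (others 307.9 to 326.2), Rpl5 at 415.6 (291.8 to 302.6), Rpl13a at 413.1 (273.5 to 285.8), Rps3 at 375.6 (243.7 to 259.5) and Rpl7 at 367 (245.4 to 259.7). Rps12 was at 288.7 CPM (181.2 to 196.5), Rpl11 at 253.9 (158.3 to 172.8), Rps19 at 162.9 (100.4 to 109.4) and Rplp2 at 134.9 (91.24 to 94.61). Rpl39 was at 102.5 CPM (62.36 to 63.55) and Rpl22l1 at 66.58 (43.92 to 45.63). For each of these genes the library remained far below the lowest untreated library.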

How the results depend on the processing

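In the S-961 comparisons the members' median stayed below 0 and lower calls outnumbered higher ones under each alternative, but counts and sizes moved. With total counts, the median of all genes moved to 0.51, 0.43 and 0.61 (both parity groups, virgin, multipara) and that of members to -1.07, -1.10 and -1.08, with 1, 1 and 0 called higher. With the transcript length trend the medians were -0.88, -0.79 and -0.87, with 1, 2 and 0 higher. With the coding length trend they were -1.14, -1.12 and -1.17, with 1, 0 and 1 higher. With the replicate block and the transcript length trend together they were -0.85, -0.79 and -0.82, with 2, 2 and 0 higher. The large to small ratio was 0.13 from mean log2 CPM, and the share of counts differed by -3.64 percentage points without Ins1 and Ins2 (-1.81 with them). Leaving out 1 library at a time gave 80 to 82 lower calls over both parity groups (medians -1.66 to -1.55), 70 to 80 in virgin and 74 to 83 in multipara islets. The shares of all genes called under these alternatives are not given here, so the counts of members cannot be set beside a general share.

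Single genes changed direction. With total counts, Rplp0 was at 0.07, Rps2 at 0.084, Rps4l at 0.28 and Rpl7l1 at 0.38. With the transcript length trend, Rpl29 was at 0.10, Rps2 at 0.13, Rps4l at 0.50, Rpl7l1 at 0.24 and Rps27l at 0.23, and with the coding length trend Rpl7l1 at 0.092. With the replicate block added to the transcript length trend, Rpl10a was at 0.012, Rpl29 at 0.14, Rps2 at 0.15, Rps4l at 0.53, Rpl7l1 at 0.29 and Rps27l at 0.31. In the parity comparisons, which called no member, leaving out 1 library gave -0.294 to 0.026 for Rpl22l1, -0.019 to 0.321 for Rpl32 and -0.017 to 0.416 for Rpl39 with S-961, the lowest without multipara S-961 2 and the highest without virgin S-961 3. Among untreated libraries Rpl6l ran from -0.279 to 0.067 and Rpl10 from -0.105 to 0.001. Rplp2 over Rplp1 ran from -0.031 to 0.075. The cause was not tested.

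With the replicate block alone, 80 members were called lower over both parity groups, 75 in virgin and 78 in multipara islets. For these counts too, the share of all genes called is not given. Same-numbered libraries correlated at -0.15 to 0.28, so that the numbers were not taken to pair them.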
